A study of Rattus norvegicus with 2 samples.

Results

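Kinesins are motor proteins that use ATP to move along microtubules or to remodel their ends. Transport kinesins carry vesicles, organelles and RNA granules, most of them towards the plus ends of microtubules, while mitotic kinesins build the spindle, move chromosomes and split the dividing cell. In oligodendrocytes, the glial cells that make myelin, microtubules run into the processes and carry vesicles and the mRNA of myelin basic protein to the growing sheath, and the kinesin Kif1b is known to take part in placing that mRNA. The genes described here were chosen by name: every row of the deposited table whose symbol begins with Kif or Kifc and a number, or with Klc and a number, and the row Kifap3, without pseudogene symbols. The rule found 45 of 18049 genes. They comprise 13 mitotic kinesin genes, 20 genes of transport kinesins and their subunits, and 12 others, which act in cilia, regulate microtubules or are atypical. Kif1bp, which encodes a kinesin-binding protein and no motor, matched the rule by its name and is counted among the others. Cenpe, a mitotic kinesin with a different kind of name, is given with the spindle genes.

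RNA was sequenced from oligodendrocyte precursor cells of wild type rat pups, aged 2 to 4 days after birth, isolated from the cortex by immunopanning. The precursors were electroporated with siSCR, a scrambled siRNA, or with siHsc70, which targets Hsc70, a constitutive HSP70 chaperone encoded by Hspa8. The medium in which both groups differentiated held T3, a thyroid hormone, at 60 nM and left out PDGF-AA, bFGF and NT3. The design text gives day 2 of T3 and names the cells immature oligodendrocytes. Each group was 1 library, so no difference below could be tested against the spread between cultures, and no p-value is given. How many pups were pooled is not given in the sources used here.

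Total estimated counts, the authors' reads per gene, were 19085626 for siSCR and 18130817 for siHsc70, of which the kinesin genes took 0.390% and 0.291%. The targeted gene Hspa8 was at 1399 CPM (the count as a share of its library, scaled between the libraries) in siSCR and at 507 CPM in siHsc70. Of 10 oligodendrocyte lineage markers, 10 were measured in both libraries, with a summed level of 8133 CPM in siSCR and 3038 CPM in siHsc70. Markers of other cell types that the dishes could hold were summed too. The 8 astrocyte markers summed to 3557 and 2934 CPM and 13 neuron markers to 999 and 724 CPM. Of the neuron sum, Map2 alone held 526 and 340 CPM. By any amount, 8 of the neuron markers were lower in siHsc70 and 5 higher. The astrocyte markers went both ways: of 7 measured, 4 were higher in siHsc70 and 3 lower, with a median difference of 0.098. Past 2-fold were Gfap (1416 and 667 CPM) and Aqp4 (85 and 20.6 CPM), both lower, while Slc1a3 was at 1522 and 1629 CPM. The 5 microglia markers found in the table summed to 6.24 and 10.3 CPM, 4 endothelial markers to 8.42 and 4.78 CPM, and 7 fibroblast and mural markers to 43.2 and 107 CPM. Within the microglia list, Cd68 (1.66 and 4.34 CPM) and Tmem119 (3.38 and 5.50 CPM) were higher in siHsc70, while Csf1r (0.416 and 0.111 CPM) and P2ry12 (0.780 and 0.278 CPM) were lower and not measured by the rule. Most of the fibroblast and mural sum was Col1a1 (24.3 and 73.8 CPM). Of 5 measured in that list, 4 were higher in siHsc70 and 1 lower. Besides Col1a1, the higher ones were Postn (2.70 and 6.56 CPM), Pdgfrb (6.39 and 10.6 CPM) and Col1a2 (7.02 and 13.7 CPM). Col3a1 (2.29 and 1.83 CPM) was lower, as was Dcn (0.468 and 0.0556 CPM), which was not measured by the rule. Aif1 was at 0 in siSCR, and Cdh5 and Lum were at 0 in siHsc70. The single markers named here were picked after their values were seen.

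As a family, the kinesin genes were more often lower than higher in siHsc70. Of the 45 members, 42 had a mean of at least 1 CPM and are called measured, and each of these 42 was at 1 CPM or more in both libraries. The 3 others were Kif4b (0.208 and 0.167 CPM in siSCR and siHsc70), Kif6 (0.468 and 0.667 CPM) and Kif26b (0.728 and 0.890 CPM). Differences are given as log2(CPM + 1) in siHsc70 minus siSCR, and a difference of at least 1 is called at least 2-fold. The added 1 understates the change of low genes, so folds of single genes are plain ratios of normalised counts, with 95% exact (Clopper-Pearson) counting intervals. By this rule 7 of the 42 measured members were at least 2-fold lower, against 5.14% of all 13518 measured genes, and 1 was at least 2-fold higher, against 2.29% of all measured genes. The split was 8 lower and 0 higher with the deposited TPM, to which 1 was also added, and 5 lower and 2 higher with upper-quartile scaling. The deposited TPM moved the median of all measured genes to -0.13, from -0.0034, and its shares of all genes were 5.88% lower and 1.4% higher. Without the added 1, the ratio of counts was 2-fold or more lower for 9 members, against 6.88% of all measured genes. The median difference of the 42 measured members was -0.49.

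**Figure D1:**
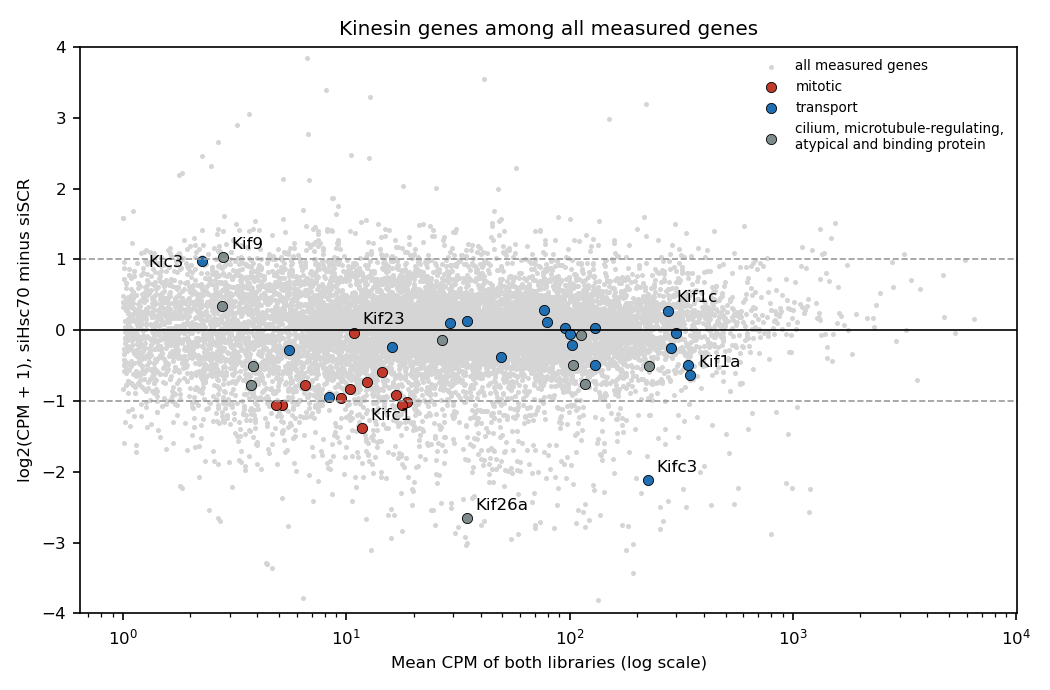
Difference of log2(CPM + 1), siHsc70 minus siSCR, against the mean CPM of both libraries on a log axis; each grey point is 1 of the measured genes (3 lie beyond the vertical range), coloured points are the 42 measured kinesin genes and dashed lines mark a 2-fold difference. Mitotic members lie at low levels near -1, most transport members lie at higher levels near 0, and Kif26a and Kifc3 lie furthest below.

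The mitotic members were low transcripts that were lower together. Of 13 members 12 were measured, with mean levels of 4.82 to 18.8 CPM. By any amount, 12 of 12 were lower in siHsc70, beside 6794 of all 13518 measured genes. Under upper-quartile scaling Kif23 alone of them turned, and 11 of 12 were lower. Their median difference was -0.93, beside -0.0034 for all measured genes. Those at least 2-fold lower numbered 5, against 5.14% of all measured genes: Kifc1, Kif20b, Kif14, Kif18b and Kif11. The number was 3 with upper-quartile factors, without Kif11 and Kif18b, and 1 (Kifc1) with the deposited FPKM, to which 1 was also added. Without that 1, Kif11 (5.49 and 2.56 FPKM), Kif14 (1.05 and 0.42), Kif18b (7.51 and 3.39) and Kif20b (1.25 and 0.51) were past 2-fold. With the deposited TPM plus 1 the number was again 5, with Kif20a and Kif2c in place of Kif14 and Kif20b. The TPM of Kif14 (2.18 and 0.81) and Kif20b (2.61 and 0.97) was past 2-fold without the added 1. For 11 of the 12 the counting interval lay wholly on the lower side, as it did for 33.8% of all measured genes. Summed over the 13 members, the deposited TPM (a level per transcript length, scaled to the library) was 121 in siSCR and 57.9 in siHsc70. In bulk RNA, fewer dividing cells and less of these transcripts per cell cannot be told apart.

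Of the 4 motors that build and hold the spindle, 3 were at least 2-fold lower, against 5.14% of all measured genes. Of these 3, Kifc1 alone kept the call under upper-quartile scaling. Kif11 (gene ID 171304), which pushes the spindle poles apart, had 491 counts (25.5 CPM) in siSCR and 217 counts (12.1 CPM) in siHsc70. It was 2.11-fold lower in siHsc70 (counting interval 1.80 to 2.49). Kif15, which can share the work of Kif11, was at 8.52 and 4.56 CPM. Kifc1 (gene ID 294286), a minus-end motor that focuses spindle poles, had 335 counts (17.4 CPM) in siSCR and 109 counts (6.06 CPM) in siHsc70. At 2.87-fold lower (2.31 to 3.60), it stood furthest from 0 of the 12 measured mitotic members, with 16.3 TPM in siSCR and 5.15 TPM in siHsc70. Kif18b (gene ID 303575), which acts on astral microtubules, had 466 counts (24.2 CPM) and 200 counts (11.1 CPM) and was 2.18-fold lower (1.84 to 2.58). In TPM, Kif11 stood at 11.4 and 4.91 and Kif18b at 15.6 and 6.51.

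Of the 4 motors that act on chromosomes, 0 passed the 2-fold rule, against 5.14% of all measured genes on the lower side. The interval of each lay on the lower side, as for 33.8% of all measured genes. Kif2c, which takes microtubules apart at centromeres, was at 12.8 CPM in siSCR and at 6.12 CPM in siHsc70. Its ratio of counts was 2.09-fold lower (1.66 to 2.64), but with the added 1 its difference was -0.95, just short of the 2-fold rule. Kif18a, which damps chromosome movements at metaphase, was at 15.7 and 9.12 CPM, and the chromokinesins Kif4a and Kif22, which bind chromosome arms, were at 13.6 and 7.23 CPM and at 17.6 and 11.3 CPM. Kif22 had the highest TPM of the mitotic members in both libraries, 18.2 and 10.6. From 338 and 203 counts, it was 1.56-fold lower (1.30 to 1.86). Kif4b is a near-identical copy of Kif4a that RefSeq lists as a pseudogene. It took 4 counts in siSCR and 3 in siHsc70, so few reads were given to it.

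Among the motors of cell division proper, Kif23 stood apart. Kif14, Kif20a and Kif20b act in cytokinesis, the last step of division. Kif14 (gene ID 360849) had 141 counts (7.33 CPM) in siSCR against 54 counts (3.00 CPM) in siHsc70, a 2.44-fold lower ratio (1.77 to 3.40), and Kif20b (gene ID 309523) had 132 counts (6.86 CPM) and 50 counts (2.78 CPM), a 2.47-fold lower ratio (1.77 to 3.49). Both intervals are wide because the counts are low, and the TPM was 2.18 and 0.81 for Kif14 and 2.61 and 0.97 for Kif20b. Kif20a, with 16.2 TPM in siSCR and 7.48 TPM in siHsc70, was at 22.1 and 11.3 CPM (426 and 203 estimated counts), 1.96-fold lower (1.66 to 2.33). Kif23, the motor subunit of the centralspindlin complex, had 211 counts (11 CPM) in siSCR and 192 counts (10.7 CPM) in siHsc70. Its ratio was 1.03-fold lower with an interval from 0.841 to 1.26, which includes 1 and leaves out a 2-fold difference. Racgap1, the other subunit of centralspindlin, was at 23.8 and 15.3 CPM, 1.55-fold lower (1.33 to 1.81).

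**Figure D2:**
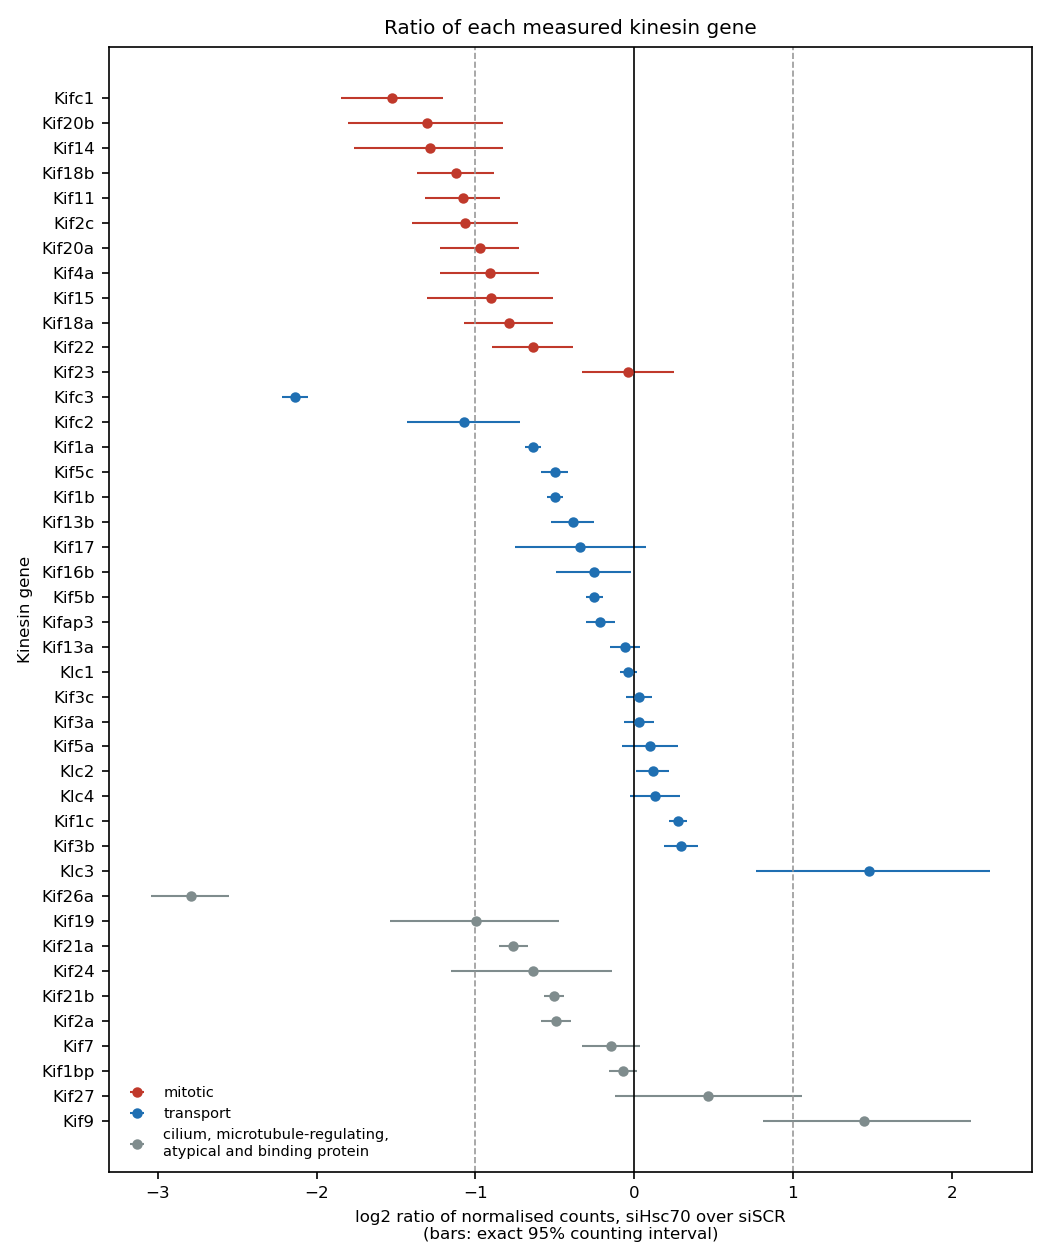
Ratio of normalised counts, siHsc70 over siSCR, on a log2 axis for each of the 42 measured kinesin genes; points are 1 library against 1 library, bars are exact 95% counting intervals, and dashed lines mark 2-fold. The interval of 11 of the 12 mitotic genes lies below 0 and that of Kif23 spans it, while the transport genes spread around 0 with Kifc3 far below and Klc3 above.

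Promoters of the mitotic members are shown because these genes were lower together. RefSeq promoter sequences (assembly GRCr8, 250 bases before to 50 bases after each gene start, 300 bases in all) were found for 35 of the 45 members. Kif13b, Kif14, Kif19, Kif21b, Kif26a, Kif4b, Kif5a, Kif7, Kifc2 and Kifc3 had no entry. They were searched on both strands for the cell cycle homology region, CHR, with the letters TTTGAA or TTCGAA, and for the CCAAT box with the letters CCAAT. The CHR is known as a site through which genes of late cell cycle are repressed in resting cells, and the CCAAT box is bound by the factor NF-Y. The motifs may share end letters, and none do in the stretches printed here. Of 11 mitotic genes with a promoter, 6 held CHR letters (Kif15, Kif20b, Kif22, Kif23, Kif4a and Kifc1), 7 held a CCAAT box and 5 held both. Of 16 transport genes, 0 held CHR letters and 4 held a CCAAT box (Kif1b, Kif3b, Kif5b and Klc2). Of the 8 other members, 2 held CHR letters (Kif24 and Kif26b), 4 held a CCAAT box and 2 held both. Some genes have more than 1 promoter. Counted per promoter, CHR letters were in 50% of 12 mitotic, 0% of 18 transport and 25% of 8 other promoters, against 19.7% of all 33469 in the RefSeq table. A CCAAT box was in 58.3%, 22.2% and 50% of them, against 37.5% of all, and both were in 41.7%, 0% and 25%, against 7.95% of all. A match describes the letters and shows no binding.

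The 160 bases before the gene start are printed 5′ to 3′ on the gene's strand for the 4 mitotic members that hold both motifs wholly within them, with the motif letters of either strand in capitals. They are Kif20b (chr1:241840856-241841015, plus strand), Kif22 (chr1:191080879-191081038, minus strand), Kif23 (chr8:71320585-71320744, minus strand) and Kifc1 (chr20:5000769-5000928, plus strand).
Kif20b: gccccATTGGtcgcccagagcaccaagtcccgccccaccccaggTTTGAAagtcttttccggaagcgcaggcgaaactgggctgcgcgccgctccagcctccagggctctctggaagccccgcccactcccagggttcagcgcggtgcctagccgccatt
Kif22: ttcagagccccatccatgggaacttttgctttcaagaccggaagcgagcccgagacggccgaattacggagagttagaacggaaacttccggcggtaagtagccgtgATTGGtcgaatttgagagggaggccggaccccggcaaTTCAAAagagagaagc
Kif23: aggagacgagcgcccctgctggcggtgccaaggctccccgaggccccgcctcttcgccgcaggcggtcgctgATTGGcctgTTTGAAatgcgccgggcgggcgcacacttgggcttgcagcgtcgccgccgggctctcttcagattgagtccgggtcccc
Kifc1: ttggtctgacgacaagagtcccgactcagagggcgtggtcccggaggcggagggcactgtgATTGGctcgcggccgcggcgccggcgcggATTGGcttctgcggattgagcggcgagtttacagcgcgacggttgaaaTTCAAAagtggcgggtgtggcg
The CHR letters begin 116 bases before the start in Kif20b, 16 in Kif22, 79 in Kif23 and 22 in Kifc1. In each of the 4 the CCAAT box lies upstream of the CHR, by 39 bases in Kif20b, 37 in Kif22, 9 in Kif23 and, for the nearer of its 2 boxes, 48 in Kifc1. Kif23, whose level was close to equal in the libraries, and Kifc1, which was furthest from 0 among the mitotic members, both hold the pair.

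Genes that work with the mitotic kinesins were lower as well. Of 20 spindle and cytokinesis genes listed, 20 were measured and 19 were lower in siHsc70, beside 6794 of all 13518 measured genes. With the deposited TPM 20 were lower, beside 8542 of all measured genes. On the lower side 3 passed 2-fold, against 5.14% of all measured genes. The median was -0.62. The 3 were Nusap1, a microtubule-bundling protein of the spindle (24.3 and 10.8 CPM, 2.25-fold lower, 1.90 to 2.68), the checkpoint kinase gene Bub1 (18.5 and 8.56 CPM, 2.16-fold lower, 1.78 to 2.63) and the kinase gene Aurkb (10.3 and 4.62 CPM, 2.24-fold lower, 1.73 to 2.93). Cenpe, which carries chromosomes to the spindle equator, was at 16.2 and 8.79 CPM, 1.84-fold lower (1.51 to 2.24), like the mitotic members chosen by name. Aurka, a kinase of spindle poles chosen here after its values were seen, was at 31.8 CPM in siSCR and at 34.1 CPM in siHsc70 and was the 1 gene of the list on the higher side.

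The transport members were expressed at higher levels and, with a few exceptions, differed little. Of 20 members 20 were measured, with mean levels of 2.27 to 346 CPM. Their median difference was -0.14, and -0.27 with the deposited TPM, on which all genes had a median of -0.13. By any amount, 12 were lower and 8 higher, beside 6794 and 6724 of all measured genes. The split was 10 and 10 under upper-quartile scaling, beside 6047 and 7471 of all measured genes. With the deposited TPM it was 16 and 4, beside 8542 and 4965. Kifc3 was the 1 member past 2-fold on the lower side, and 0 passed it on the higher side. These counts were near the shares of all measured genes, 5.14% and 2.29%. The counting interval lay on the lower side for 9 and on the higher side for 4, against 33.8% and 32.5% of all measured genes. The summed TPM of the transport members was 1474 in siSCR and 1062 in siHsc70, and without Kifc3 it was 1236 and 1014. They made up 77.2% of all kinesin TPM in siSCR and 79.6% in siHsc70, while the mitotic share was 6.33% and 4.34%.

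**Figure D3:**
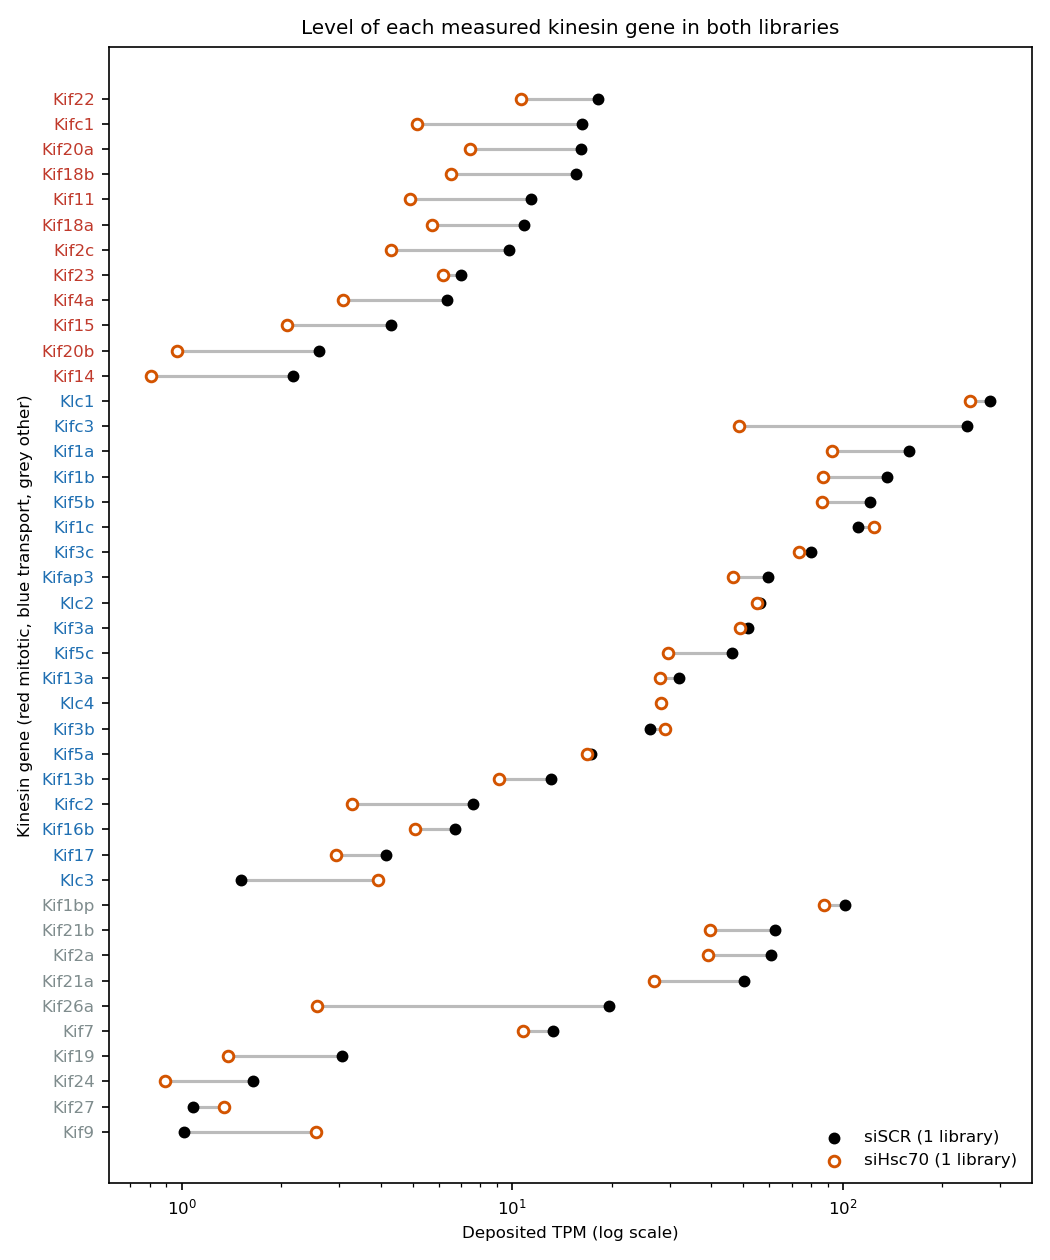
Deposited TPM on a log axis in siSCR (filled points) and siHsc70 (open points) for each of the 42 measured kinesin genes, 1 library each, ordered within the mitotic, transport and other members by the siSCR level. Klc1 is highest in both libraries, and Kifc3 moves from 238 TPM in siSCR to 48.6 TPM in siHsc70.

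Kifc3 (gene ID 307644), a minus-end motor with its motor domain at the C terminus, was the transport member that differed most. It had 7026 estimated counts (365 CPM) in siSCR against 1496 (83.2 CPM) in siHsc70, a 4.39-fold lower ratio (4.15 to 4.64). By TPM it ranked 2 among the 45 members in siSCR, at 238 TPM, and 10 in siHsc70, at 48.6 TPM. Its difference of -2.12 ranked 96 from the lowest among the 13518 measured genes. Kifc2, the other C-terminal transport motor, was at 11.3 CPM in siSCR and at 5.39 CPM in siHsc70, a 2.10-fold lower ratio (1.65 to 2.70). Its difference with the added 1 was -0.95, short of the 2-fold rule, and -1.01 with the deposited TPM. Of the 10 oligodendrocyte lineage markers, 9 were also lower in siHsc70, 7 by at least 2-fold, against 5.14% of all measured genes. Olig1 was higher. The part of these markers in the level of Kifc3 was not tested.

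The heavy chains of kinesin-1, the conventional kinesin of vesicle and mitochondrial transport, differed modestly. Kif5b, the heavy chain that most cell types express, was at 310 CPM in siSCR and at 261 CPM in siHsc70, 1.19-fold lower (1.14 to 1.24). Kif5c, known from neurons, was at 152 and 107 CPM, 1.42-fold lower (1.34 to 1.5). Kif5a, the third heavy chain and also best known from neurons, was at 28.2 and 30.2 CPM, and its interval included 1. The order of the heavy chains by TPM was the same in both libraries: Kif5b made up 65.5% of their TPM in siSCR and 65.1% in siHsc70, Kif5c 25.1% and 22.3%, and Kif5a 9.38% and 12.6%. Of 13 neuron markers, 8 were lower in siHsc70 and 5 higher by any amount. By the 2-fold rule 4 were lower and 0 higher, against 5.14% and 2.29% of all measured genes. Without the added 1, Snap25 (10.0 and 20.1 CPM) was 2.00-fold higher (1.68 to 2.40). The counting interval lay on the lower side for 7 and on the higher side for 5, against 33.8% and 32.5% of all measured genes. The part of these markers in the neuron-rich kinesins was not tested.

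The kinesin light chains, which bind cargo adaptors for kinesin-1, were at nearly equal levels apart from the scarce Klc3. Klc1 had the highest TPM of all 45 members in both libraries, 279 in siSCR and 243 in siHsc70. From 5810 and 5296 counts it was at 302 and 294 CPM, with an interval of 0.988 to 1.06 for the lower fold. Klc2 was at 75.8 and 82.2 CPM, and Klc4 was at 33.1 and 36.3 CPM. Klc3 was at 1.20 CPM in siSCR and at 3.34 CPM in siHsc70, from 22.6 and 59.5 estimated counts. That was a 2.79-fold higher ratio (1.70 to 4.73), although its difference of 0.98 with the added 1 fell short of the 2-fold rule. Klc3 overlaps Ercc2 in the RefSeq annotation, its counts are not whole numbers, and Ercc2 itself was at 29.7 and 29.0 CPM. Whether reads were split between them was not tested.

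Kinesin-2, the motor of the ciliary axoneme and of some vesicles, was close to equal in the libraries. Kif3a, the motor subunit common to its main form, was at 93.9 CPM in siSCR and at 96.0 CPM in siHsc70. Its partner Kif3b was at 69.2 and 84.8 CPM, 1.23-fold higher (1.14 to 1.32). Kif3c, which pairs with Kif3a in neural cells, was at 128 and 131 CPM. It had the highest TPM of the kinesin-2 motor subunits, with 49.4% of their TPM in siSCR and 47.8% in siHsc70. Kifap3, the cargo-binding subunit, was at 110 and 95 CPM, 1.16-fold lower (1.09 to 1.24). The homodimeric Kif17 was low, at 6.18 and 4.89 CPM. With the deposited TPM, Kif3a and Kif3c stood slightly on the lower side instead (-0.080 and -0.11), as did Kif5a (-0.038) and Klc2 (-0.030).

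Kinesin-3 motors, which move vesicles and organelles over long distances, differed in both directions. Kif1a (gene ID 363288), a carrier of synaptic and dense-core vesicle precursors, had 8119 estimated counts (422 CPM) in siSCR against 4874 (271 CPM) in siHsc70. That was a 1.56-fold lower ratio (1.5 to 1.61), and Kif1a was at 159 and 92.6 TPM. Kif1b (gene ID 117548), the motor named above for myelin basic protein mRNA, had 7640 counts (397 CPM) and 5060 counts (281 CPM), a 1.41-fold lower ratio (1.36 to 1.46). Mbp itself was at 1968 CPM in siSCR and at 414 CPM in siHsc70. Kif1c, which carries dense-core vesicles and integrins, went the other way, at 250 and 303 CPM, 1.21-fold higher (1.17 to 1.26). By TPM these 3 ranked 3, 4 and 6 among the 45 members in siSCR and 3, 5 and 2 in siHsc70. Kif13b, which is known to influence myelination, was at 55.7 and 42.5 CPM, 1.31-fold lower (1.19 to 1.44). The endosomal motors Kif13a and Kif16b were at 102 and 98.3 CPM and at 17.5 and 14.7 CPM.

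**Figure D4:**
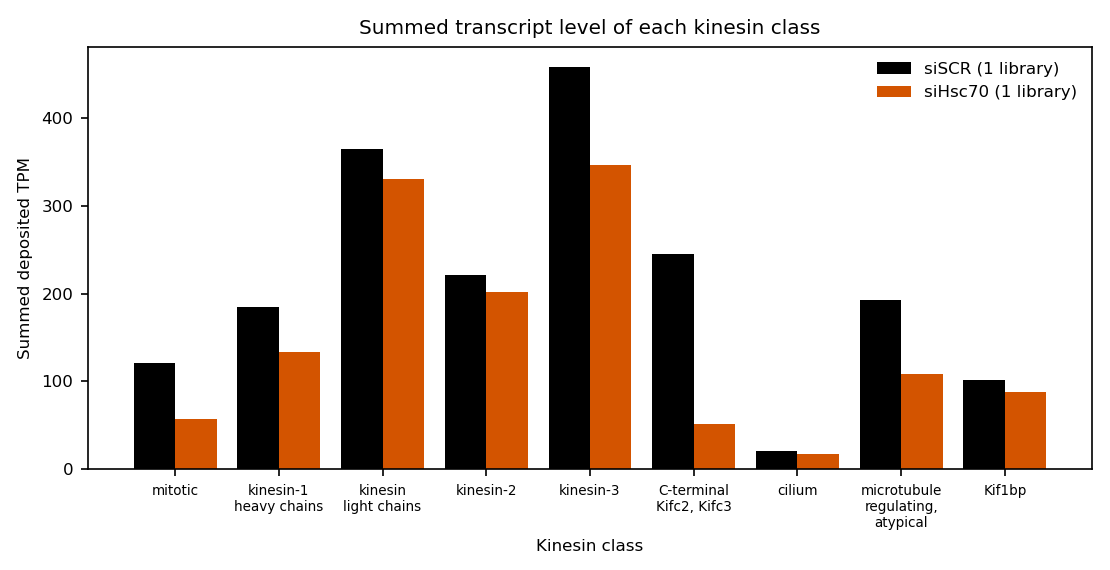
Summed deposited TPM of each kinesin class in siSCR (black bars) and siHsc70 (orange bars), 1 library each, from 0. The mitotic class stood at 121 and 57.9 TPM and the C-terminal class of Kifc2 and Kifc3 at 245 and 51.9 TPM, while kinesin-2 (221 and 201 TPM) and the light chains (365 and 330 TPM) differed least among the classes of more than 1 gene by the ratio of sums, together with the cilium class (20.4 and 17.3 TPM).

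Among the members classed as neither transport nor mitotic, Kif26a stood furthest from 0 of all 42 measured kinesin genes. Kif26a (gene ID 314473) encodes an atypical kinesin that binds microtubules without motor activity and restrains signalling of a growth factor receptor in enteric neurons. It had 1163 counts (60.4 CPM) in siSCR against 157 counts (8.73 CPM) in siHsc70, a 6.92-fold lower ratio (5.86 to 8.23), and its TPM was 19.6 and 2.57. Its difference of -2.66 ranked 38 from the lowest of the 13518 measured genes. Kif26b, its relative, was close to the limit of what was measured, with 14 and 16 counts.

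The 3 microtubule-regulating members were lower by less than 2-fold. Kif21a, which stops microtubule growth at the cell cortex, was at 147 CPM in siSCR and at 86.5 CPM in siHsc70, 1.69-fold lower (1.59 to 1.80). Kif21b, which makes growing microtubules pause, was at 266 and 187 CPM, 1.42-fold lower (1.36 to 1.48), and Kif2a, which takes microtubule ends apart, was at 121 and 86.2 CPM, 1.41-fold lower (1.32 to 1.5). Kif1bp, which keeps several kinesins off microtubules, had 2211 and 1968 counts and was at 115 and 109 CPM, with an interval of 0.988 to 1.12 for the lower fold. By TPM, Kif1bp (102 and 87.8), Kif21b (62.4 and 39.8, from 5122 and 3370 counts) and Kif2a (60.6 and 39, from 2333 and 1550 estimated counts) were the 3 highest of the members outside the mitotic and transport classes.

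The kinesins of cilia and of Hedgehog signalling were mostly scarce and differed in both directions. Kif7, which works in Hedgehog signalling at the tip of the primary cilium, was at 28.3 CPM in siSCR and at 25.6 CPM in siHsc70, and its interval included 1. Kif27, a relative of Kif7, was at 2.34 and 3.23 CPM with an interval that also included 1. Kif19, which trims the tips of cilia, was at 4.99 and 2.50 CPM, 1.99-fold lower (1.39 to 2.91), and Kif24, which holds back cilium formation at the centriole, was at 4.68 and 3.00 CPM. Kif9, a kinesin of motile cilia, was the 1 member at least 2-fold higher by the rule, with 28.8 estimated counts (1.51 CPM) in siSCR against 74.5 (4.11 CPM) in siHsc70, a 2.73-fold higher ratio (1.76 to 4.35), at 1.02 and 2.55 TPM. With 1 added to these values too, its difference of 1.03 was 0.81 with the deposited TPM and 0.65 with the deposited FPKM, which ends the call. Without the added 1, its TPM and its FPKM (0.49 and 1.33) were both more than 2-fold higher. Its mean level is under a minimum of 5 CPM. It overlaps Setd2 in the RefSeq annotation, which was at 130 and 105 CPM. Of Kif9 too, the estimated counts are not whole, while those of Setd2 are. On the lower side, Kif19 overlaps Btbd17 (19.4 and 14.2 CPM) and Kif20a overlaps Cdc23 (79.7 and 66.8 CPM). Kifc2 overlaps Foxh1 (0.260 and 0.111 CPM). In each of these pairs, the counts of both genes are not whole. Kif2a, with counts that are not whole, overlaps Dimt1 (24.5 and 17.8 CPM), whose counts are whole. Whether reads were split between these neighbours was not tested. Counts were not whole for Kifc3, Kif1a, Kif1c, Kif5b and Kif24 either.

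Genes that act beside the transport kinesins differed by group. Of 24 measured adaptors and regulators of kinesins, 3 passed 2-fold on the lower side and 0 on the higher side, beside 5.14% and 2.29% of all measured genes, and the median was -0.19. The 3 were Map7, which recruits kinesin-1 to microtubules (152 and 43.2 CPM, 3.52-fold lower, 3.25 to 3.81), Madd, an adaptor of Kif1a and Kif1b (26.2 and 8.79 CPM, 2.98-fold lower, 2.49 to 3.59), and Mapk8ip2, a scaffold that binds light chains (23.2 and 9.06 CPM, 2.56-fold lower, 2.13 to 3.08). Of 26 measured genes of dynein and dynactin, the motor complex that moves towards minus ends, 1 was at least 2-fold lower and 0 higher, a share near the 5.14% of all measured genes. It was the light chain gene Dynll2, at 461 and 190 CPM, 2.43-fold lower (2.34 to 2.53), and the heavy chain gene Dync1h1, named after its values were seen, was at 708 and 705 CPM. The dynein and dynactin median was -0.042, and it turned to 0.013 under upper-quartile scaling.

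Genes of intraflagellar transport, the cargo trains that kinesin-2 moves in cilia, lay on the higher side. All 20 listed were measured and all 20 were higher in siHsc70 by some amount, beside 6724 of all 13518 measured genes. With the deposited TPM 17 of 20 were higher, beside 4965 of all measured genes. The counting interval lay wholly above 1 for 17 of the 20, as for 32.5% of all measured genes. Their median was 0.36, and 0 of them reached 2-fold. The median was 0.22 with the deposited TPM. Ift27, furthest from 0, was at 10.4 CPM in siSCR and at 20.3 CPM in siHsc70, 1.95-fold higher (1.64 to 2.33). The kinesin-2 subunits that pull these trains did not share one direction: Kif3b was 1.23-fold higher, the interval of Kif3a (0.956 to 1.09) included 1, and Kifap3 was 1.16-fold lower.

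**Figure D5:**
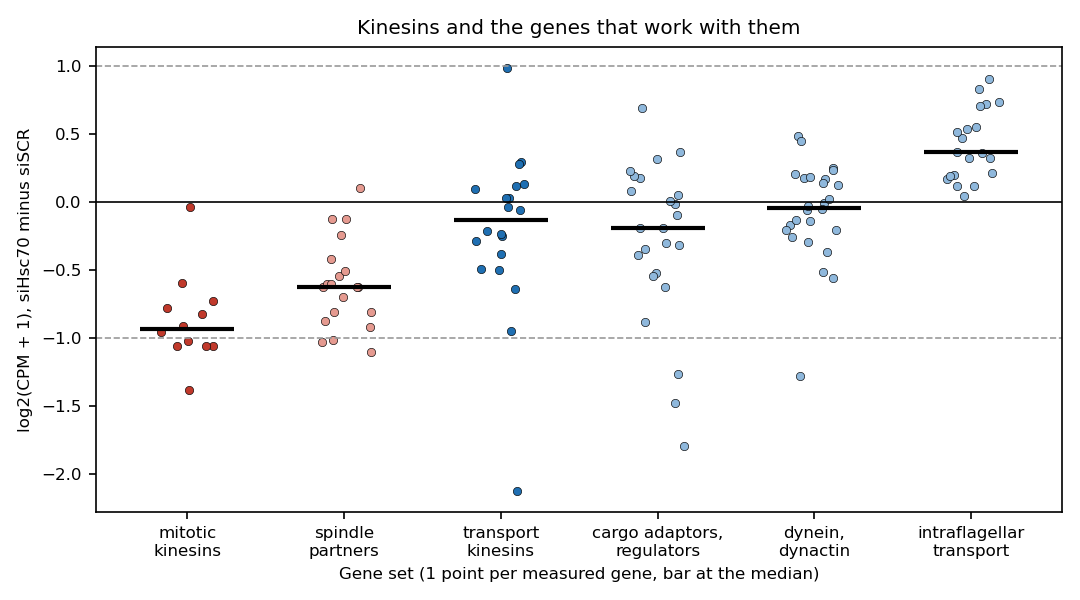
Difference of log2(CPM + 1), siHsc70 minus siSCR, for each measured gene (points) of 6 sets, with the median as a bar and dashed lines at 2-fold. Medians are -0.93 for mitotic kinesins, -0.62 for spindle partners, -0.14 for transport kinesins, -0.19 for adaptors and regulators, -0.042 for dynein and dynactin and 0.36 for intraflagellar transport.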

How the data were processed

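Gene expression was measured by RNA sequencing in 2 libraries, 1 per group. The authors deposited estimated counts per gene, which need not be whole numbers, together with FPKM and TPM values, per the file headers. The submitters' processing notes name the build mm39, although the gene IDs are those of rat: 16783 of 18049 IDs, and all 45 members, were found in RefSeq genes of GRCr8. The aligner, the annotation and any use of strand were not given in the sources used here, so reads of overlapping genes cannot be told apart and the only coordinates given are those of RefSeq promoters on GRCr8. Estimated counts were rounded and scaled to CPM with TMM factors (1.01 for siSCR, 0.992 for siHsc70; edgeR 4.0.16, R 4.3.3). A count of 0 allows up to 3 counts, 0.156 and 0.167 CPM. Folds carry exact intervals (Python 3.11.15, scipy 1.17.1), which cover counting error only, and PCR copies are not independent molecules. The calculation was tested on simulated data.

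The members, classes, gene lists and the rule for named genes were chosen with earlier results of these data known. All measured members were named, those past 2-fold and the 3 highest by TPM in each class in full. From each list of partner genes, up to 3 genes past 2-fold per direction were named, or the gene furthest from 0.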

Additional observations from a re-analysis of the deposited data

How the results depend on the processing

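Alternatives were other scalings (DESeq2 size factors, upper-quartile factors, total counts, the deposited TPM and FPKM), a pseudocount of 0.1, other minimum means and a 1.5-fold rule. In TPM and FPKM the same 1 was added as in CPM, which understates the change of low values there too. The 7 members at least 2-fold lower became 3 with the deposited FPKM and 17 with the 1.5-fold rule. The 1 member higher became 2 with upper-quartile factors, a pseudocount of 0.1 or the 1.5-fold rule, and 0 with the deposited TPM, the deposited FPKM or a minimum mean of 5 CPM. Kifc1, Kifc3 and Kif26a were among the lower members under each of these settings. The median of the mitotic members ranged from -1.01 (pseudocount 0.1) to -0.64 (deposited FPKM, on a smaller scale). That of the transport members was -0.27 with the deposited TPM, and -0.047 without members whose counts are not whole, an alternative chosen after seeing the data. Kif3a, Kif3c, Kif5a and Klc2 changed sign with the deposited TPM, and Kif13a, Kif23 and Klc1 under upper-quartile factors. Low counts widen the intervals of the mitotic members and of Klc3, Kif9, Kif19, Kif24 and Kif27. No paired analysis was possible because each group has 1 library.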

Other observations

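A pair of rows outside the naming rule carry kinesin symbols in RefSeq although the table lists them under LOC names. Kif19b had 11 counts in siSCR and 4 in siHsc70, and Kif27l1 had 1 and 2 counts.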
